A study of Mus musculus with 14 samples.

Results

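The NRF2 antioxidant and iron storage genes examined here were Gclc, Gclm, Hmox1, Nqo1, Txnrd1, Gstm1, Ftl1, Fth1, Cat and Ephx1, 10 of the 24354 genes in the expression table, chosen by name. They were followed in quadriceps muscle of male C57BL/6 mice (the strain label reads C57B/6) aged 4 months, kept on normal chow and a light/dark schedule, at rest and with no specific treatment. RNA-seq libraries came from HDAC3 wild-type mice (n = 3) and HDAC3 knockout mice (n = 3), all taken at ZT10, which counts hours from lights on. The labels do not say which cells carry the deletion, what drives it or whether replicates are separate animals, so p-values measure a spread between libraries that may be technical. The series also holds HDAC3 ChIP-seq, input and nascent RNA libraries, and these were not used for the genes described here.

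NRF2, encoded by Nfe2l2, is a transcription factor that KEAP1 holds in the cytoplasm and marks for degradation. Under oxidative or electrophilic stress it escapes KEAP1, pairs with small MAF proteins and binds antioxidant response elements at genes for glutathione synthesis, conjugation, quinone and thioredoxin reduction, heme breakdown and ferritin, while BACH1 competes for the same sites. Skeletal muscle makes reactive oxygen species in its mitochondria and during contraction, and it keeps much iron in myoglobin and respiratory enzymes. HDAC3 is the histone deacetylase of the NCoR/SMRT corepressor complexes.

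The start regions of the members were read from RefSeq promoters (GRCm38.p6, 250 bases before to 50 after each start), which held 12 starts for 8 of the 10 genes; Gclc and Hmox1 were not matched. Stretches upstream of the start are shown for the 4 genes that rose by the test below, each the 150 bases next to the start. Gclm did not pass that test but holds the antioxidant response element core. For Gclm only the first 80 of those 150 bases are shown, so its stretch ends before the start. Capitals mark that core (TGACNNNGC), the GC box (GGGCGG) and the CCAAT box (CCAAT) on either strand.
Nqo1, chr8:107403206-107403355, minus strand: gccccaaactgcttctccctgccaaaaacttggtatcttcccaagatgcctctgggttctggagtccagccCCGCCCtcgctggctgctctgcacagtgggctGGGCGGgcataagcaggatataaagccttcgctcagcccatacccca
Gstm1, chr3:108017974-108018123, minus strand: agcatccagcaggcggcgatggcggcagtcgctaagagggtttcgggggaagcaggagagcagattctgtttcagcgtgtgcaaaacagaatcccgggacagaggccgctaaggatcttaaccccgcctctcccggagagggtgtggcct
Cat, chr2:103485154-103485303, minus strand: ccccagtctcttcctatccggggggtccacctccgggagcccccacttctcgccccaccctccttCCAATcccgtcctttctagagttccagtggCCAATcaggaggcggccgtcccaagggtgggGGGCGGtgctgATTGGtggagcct
Txnrd1, chr10:82859056-82859205, plus strand: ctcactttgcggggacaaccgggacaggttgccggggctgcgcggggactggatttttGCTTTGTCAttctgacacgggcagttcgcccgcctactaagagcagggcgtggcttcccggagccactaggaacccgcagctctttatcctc
Gclm, chr3:122245407-122245486, plus strand: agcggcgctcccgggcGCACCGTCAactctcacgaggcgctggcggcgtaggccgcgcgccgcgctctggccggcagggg

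Counting from -1 at the base before the start, the core lay at position -92 of the second of the 3 Txnrd1 starts (GCTTTGTCA, the opposite strand) and at position -134 of Gclm (GCACCGTCA, also the opposite strand). These were 2 of the 12 start regions, beside 12.4% of all 32851 promoters of that length. The same core with an A after its last C was at the Txnrd1 start only among the members and in 3.04% of all promoters. Neither match overlapped a GC or CCAAT box. The GC boxes of Gclm, at -166, -37, -23 and 34, and its CCAAT box at -158 lay outside its printed stretch. GC boxes were in 7 of the 12 regions against 35.7% of all promoters, and CCAAT boxes in 8 against 37.4%. The Cat stretch held 3 CCAAT boxes and 1 GC box, the Nqo1 stretch 2 GC boxes, and the Gstm1 stretch, from the first of its 2 starts, none of the letters searched. Outside that stretch, Gstm1 had CCAAT boxes at -206 of the same start and at -97 and -91 of the second. Cat had a further CCAAT box at -230, and the printed Txnrd1 start had a GC box at -196 and a CCAAT box at -163. A missing match says only that the letters are not in the bases searched.

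Expression was deposited as FPKM, in which fragments are divided by gene length and by library size, so levels can be set beside each other between genes. Values listed together are in the order of replicates 1, 2 and 3, and fold changes are knockout over wild type. Hdac3, the check of the labels, was at 33.3, 31.0 and 23.7 FPKM in wild type and 5.51, 6.29 and 8.16 in the knockout, a log2 fold change of -1.99 ± 0.17 (SE; limma, adjusted p = 0.00632). FPKM summed to 454359 to 495099 per library. Read numbers are not in the table; from the step size of low genes the depth of the other 5 libraries was 0.660 to 1.02 times that of wild-type replicate 1, lowest in knockout replicates 1 and 3, an estimate that rests on the 29.4% to 32.5% of low genes at that step. Muscle genes dominated, with Tnnt3 the most abundant gene of each library and 6 muscle markers summing to 42800 to 53800 FPKM in wild type and 43100 to 52800 in the knockout. Of these 6, Des, the desmin gene, rose 1.93-fold (limma, adjusted p = 0.0326), and Mb, myoglobin, had every knockout library above wild type without passing (adjusted p = 0.275). Neutrophil markers (8 genes) summed to 526 FPKM in wild-type replicate 2 and to 3.67 to 10.1 in the other libraries. In bulk tissue, fewer cells of a type and less RNA per cell cannot be told apart.

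Loss of HDAC3 was accompanied by higher levels of 4 of the 10 genes: Nqo1, Cat, Gstm1 and Txnrd1 rose by 2.64-, 1.76-, 1.65- and 1.45-fold. No member fell. All 10 reached the minimum of 1 FPKM on average over the 6 libraries, and 9 had a higher estimate in the knockout, against 50.3% of all genes tested. The test was limma on log2(FPKM + 1) over 10501 genes (Benjamini-Hochberg, adjusted p under 0.05), by which 3.65% of all genes tested were called, 2.30% risen and 1.34% fallen. At an unadjusted p under 0.05, 7 members were higher and 0 lower by limma, and 8 higher and 0 lower in the authors' deposited table. The share of all genes at that unadjusted threshold is not given. Unadjusted counts here and in the lists below thus have no background beside them. In 7 of the 10 every knockout library lay above every wild-type library, as in 14.2% of all genes tested. The median log2 fold change of the 10 was 0.54, beside 0.00 for all genes tested. By the q-values of the authors' deposited table (under 0.05), Ftl1 and Ephx1 rose in addition to the same 4 genes, 6 in all, and 0 fell. Of the 9204 genes it tests, 10.8% were called, 5.90% risen and 4.94% fallen. The genes were named with results of these data known, so no test over them as a list is given.

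**Figure D1:**
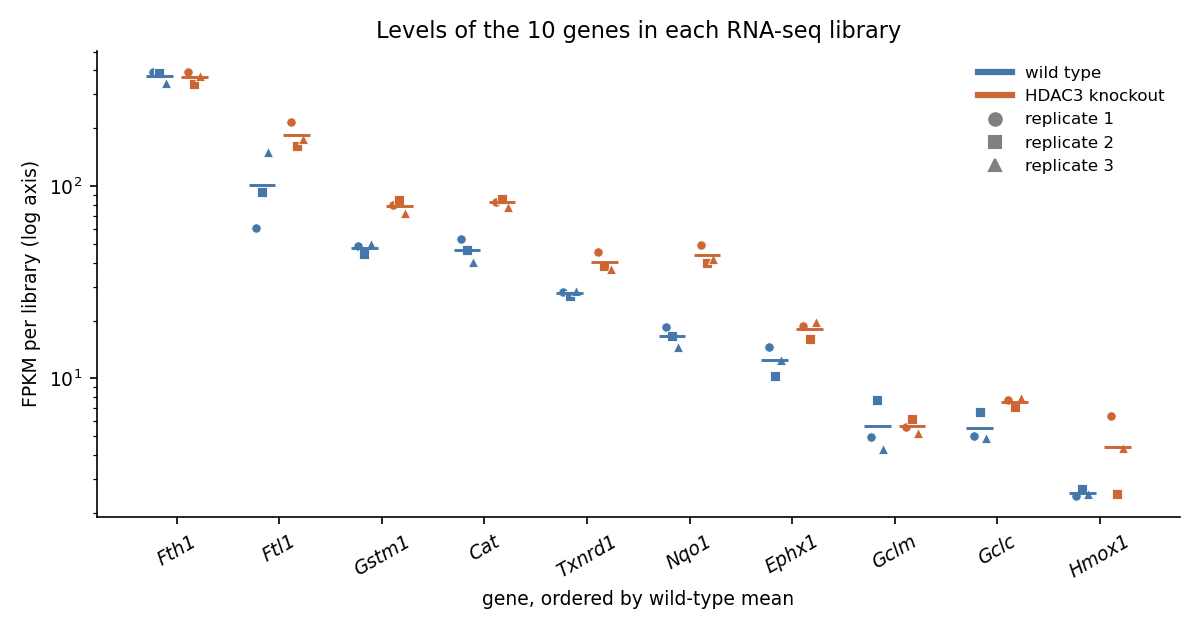
FPKM of each gene (log axis) in the 3 wild-type (blue) and 3 knockout (orange) libraries, with replicates as symbols and group means as lines. Nqo1, Cat, Gstm1, Txnrd1, Ftl1, Ephx1 and Gclc have every knockout point above every wild-type point, whereas Fth1, Gclm and Hmox1 overlap.

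**Figure D2:**
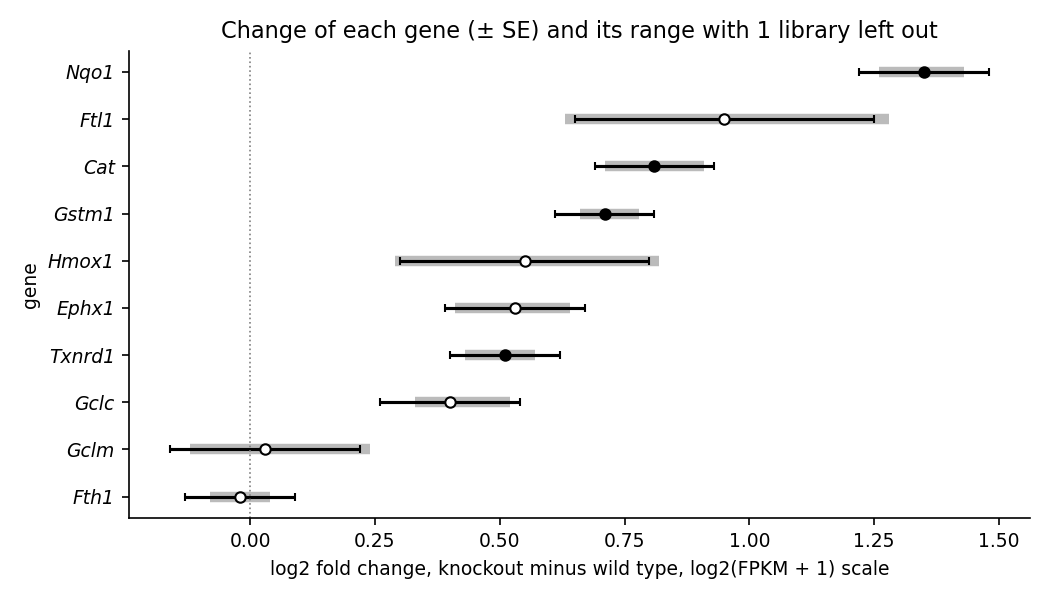
Log2 fold change of each gene, knockout minus wild type, on the log2(FPKM + 1) scale (points, with SE as bars), and the range of that estimate when any 1 of the 6 libraries was left out (grey bands). Filled points passed limma at an adjusted p under 0.05; the band of Ftl1 runs from 0.63 to 1.28 and that of Nqo1 from 1.26 to 1.43.

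In wild-type muscle Fth1, the ferritin heavy chain gene, was by far the highest of the 10 at 374 ± 26.8 FPKM (SD, n = 3), rank 165 of the 10501 genes tested. Ftl1, the light chain gene, followed at 101 ± 45.3, then Gstm1 at 47.9 ± 3.08 and Cat at 46.7 ± 6.40, whose ranges overlapped. Txnrd1 (27.9 ± 0.948), Nqo1 (16.5 ± 1.99) and Ephx1 (12.4 ± 2.10) came next with separate ranges. The glutathione synthesis genes Gclm (5.65 ± 1.82) and Gclc (5.55 ± 1.02) were not separable, and Hmox1 was lowest at 2.54 ± 0.111, rank 8200. In the knockout Nqo1 (43.7 ± 5.06 FPKM) stood level with Txnrd1 (40.4 ± 4.41), with overlapping ranges, where in wild type all Txnrd1 values lay above those of Nqo1. Gclc (7.57 ± 0.443) and Gclm (5.64 ± 0.487), not separable in wild type, had separate ranges in the knockout.

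The quinone and thioredoxin reductases were taken first. Nqo1 encodes NAD(P)H quinone dehydrogenase 1, which reduces quinones by a pair of electrons at once and is a widely used readout of NRF2. Its level was 18.5, 16.6 and 14.5 FPKM in wild type and 49.4, 39.8 and 41.9 in the knockout. All knockout libraries thus lay far above all wild-type libraries. The log2 fold change was 1.35 ± 0.13 (limma, adjusted p = 0.00688), the largest of the 10 genes. Leaving out wild-type replicate 2, the library with neutrophil markers, kept the estimate at 1.35 with an adjusted p of 0.0551; without any other single library the call held. Txnrd1, the cytosolic thioredoxin reductase that contains selenocysteine, was at 28.3, 26.8 and 28.6 FPKM in wild type and 45.4, 38.5 and 37.1 in the knockout. The groups were well apart, with a wild-type spread of 3.40% of the mean against a median of 13.9% for all genes tested. Its log2 fold change of 0.51 ± 0.11 was just inside the threshold (limma, adjusted p = 0.0475), and the call ended without any single library (adjusted p of 0.0880 to 0.184), with libraries rescaled by the median ratio (0.0541), with no filter on low values (0.0647) and without the mean-variance trend (0.0720). Eid3 and a long noncoding RNA overlap Txnrd1 in the annotation, and no source used here says whether counting used strand, so their reads may not be separable.

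Conjugation and peroxide removal followed. Cat encodes catalase, the peroxisomal enzyme that splits hydrogen peroxide. It stood at 53.2, 46.6 and 40.4 FPKM in wild type and 83.1, 85.9 and 77.9 in the knockout, so the groups were far apart. The log2 fold change was 0.81 ± 0.12 (limma, adjusted p = 0.0194). Gstm1 encodes a mu-class glutathione transferase, which joins glutathione to electrophiles. It was at 49.0, 44.4 and 50.3 FPKM against 80.2, 85.0 and 72.5, with a log2 fold change of 0.71 ± 0.10 (limma, adjusted p = 0.0184). For Cat and Gstm1 alike the call held without wild-type replicate 1 or 3 and ended without wild-type replicate 2 or any knockout replicate, with adjusted p up to 0.0911 and 0.0909 and log2 fold changes of 0.71 to 0.91 and 0.66 to 0.78. Ephx1, microsomal epoxide hydrolase, turns reactive epoxides into diols. Its values were 14.5, 10.3 and 12.4 FPKM in wild type and 18.8, 16.1 and 19.6 in the knockout (1.47-fold). The groups did not overlap, yet the log2 fold change of 0.53 ± 0.14 did not pass (limma, adjusted p = 0.101), while the authors' deposited table gave q = 0.0290. Cat, Gstm1 and Ephx1 are also abundant in liver. Of 5 hepatocyte markers, 3 (Apoa1, Ttr and Serpina1a) were at 0 in every library and Alb was at 0 to 0.13 FPKM. Their sum of 5.72 to 6.66 FPKM in wild type and 2.45 to 7.40 in the knockout was nearly all Cyp2e1 (6.58, 6.53 and 5.72 against 7.27, 3.76 and 2.32).

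Gstm1 belongs to a group of 7 Gstm genes that neighbour each other on chromosome 3 in the order Gstm5, Gstm7, Gstm6, Gstm3, Gstm2, Gstm1 and Gstm4 (RefSeq, GRCm38.p6). These copies resemble one another, and no source used here says how reads that match several of them were counted, so the split between them is uncertain. Gstm2, the next neighbour of Gstm1, was at 48.6, 32.1 and 33.3 FPKM in wild type and 162, 164 and 134 in the knockout. That is a 4.04-fold rise (log2 fold change 2.01 ± 0.17; limma, adjusted p = 0.00632), and the call held without any single library. The ratio of Gstm2 to Gstm1 went from 0.993, 0.723 and 0.661 to 2.02, 1.93 and 1.85. At the far end of the group Gstm5 was at 77.0, 77.6 and 68.5 FPKM against 68.0, 70.7 and 61.2 and overlapped between the genotypes (log2 fold change -0.16 ± 0.10; limma, adjusted p = 0.448). Gstm7 (1.05 ± 0.499 to 2.79 ± 0.487 FPKM) and Gstm4 (2.79 ± 0.323 to 4.19 ± 0.656) had every knockout library above the wild-type ones but did not pass limma (adjusted p = 0.0641 and 0.142). Gstm3 and Gstm6 were under the 1 FPKM minimum.

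**Figure D3:**
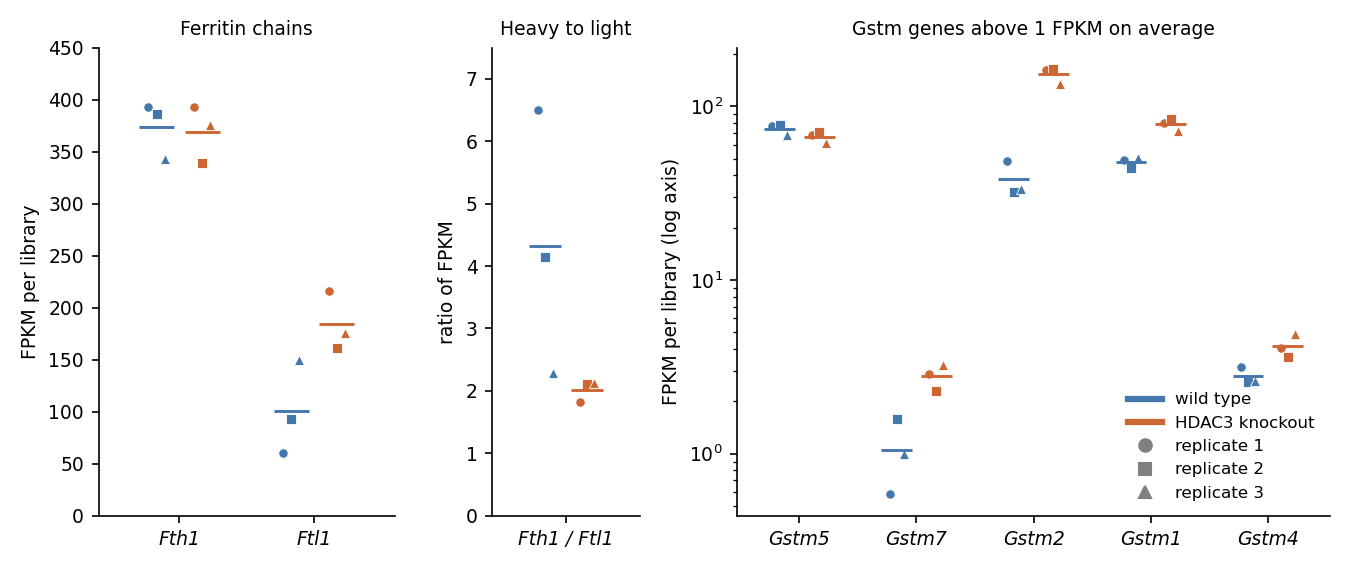
FPKM of the ferritin chain genes, the ratio of Fth1 to Ftl1 within each library, and FPKM (log axis) of the 5 Gstm genes above 1 FPKM on average, drawn in their order along the chromosome; symbols are replicates and lines group means. Fth1 overlaps between genotypes, the Ftl1 wild-type points spread from 60.3 to 150 FPKM, and Gstm2 shows the widest gap of the Gstm genes.

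Glutamate-cysteine ligase makes the first and limiting step of glutathione synthesis, with Gclc as the catalytic and Gclm as the modifier subunit. Gclc was at 5.04, 6.72 and 4.89 FPKM in wild type and 7.71, 7.07 and 7.92 in the knockout. The groups did not overlap, with wild-type replicate 2 close to the knockout (log2 fold change 0.40 ± 0.14; limma, adjusted p = 0.168; q = 0.113 in the authors' deposited table). Gclm was at 4.96, 7.71 and 4.27 FPKM against 5.57, 6.17 and 5.20, and the highest and the lowest value were both in wild type. Its log2 fold change of 0.03 ± 0.19 (limma, adjusted p = 0.955) ranged from -0.12 to 0.24 when single libraries were left out, so no direction can be given. Wild-type replicate 2 was the highest wild-type library for both subunits and is also the library with 526 FPKM of neutrophil markers; without it the log2 fold changes were 0.52 for Gclc and 0.24 for Gclm (limma, adjusted p = 0.165 and 0.522). The part of those cells in the result was not tested. The ratio of Gclc to Gclm was 1.02, 0.871 and 1.15 in wild type and 1.39, 1.15 and 1.52 in the knockout. A long noncoding RNA and a pseudogene overlap Gclm in the annotation.

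The heme and iron genes came last. Hmox1 encodes heme oxygenase 1, which opens heme and sets its iron free, and is strongly expressed by macrophages that clear red cells. It was at 2.45, 2.67 and 2.51 FPKM in wild type and 6.36, 2.52 and 4.33 in the knockout. Knockout replicate 2 lay within the wild-type range and the other knockout libraries above it (log2 fold change 0.55 ± 0.25; limma, adjusted p = 0.291; q = 0.0688 in the authors' deposited table). Without knockout replicate 2 the log2 fold change was 0.82 (adjusted p = 0.0870), and without knockout replicate 1 it was 0.29. The 8 macrophage markers measured summed to 72.4, 75.2 and 65.8 FPKM in wild type and 77.0, 47.6 and 56.2 in the knockout, most of it from Lyz2 (45.1, 22.9 and 34.1 in the knockout). Of the 8 markers, 4 (Cd68, Adgre1, C1qa and Lyz2) had the same order of the 3 knockout libraries as Hmox1, and 4 (Csf1r, Cd163, Mrc1 and C1qb) did not; none of the 8 passed limma. The part of macrophages in the Hmox1 values was not tested.

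Ferritin is a shell of heavy and light chains in which the heavy chain oxidises iron and the light chain helps to form the mineral core. Ftl1 was at 60.3, 93.0 and 150 FPKM in wild type and 216, 161 and 176 in the knockout. The groups did not overlap, but the wild-type libraries differed among themselves more than those of any other member, with an SD of 44.8% of the mean. The log2 fold change of 0.95 ± 0.30, the second largest of the 10, did not pass (limma, adjusted p = 0.144). The authors' deposited table instead gave a q-value of 0.00119, the lowest in that table and shared by 386 genes. Without wild-type replicate 3, the highest of its group, the log2 fold change was 1.28 (adjusted p = 0.0499), and without wild-type replicate 1 it was 0.63 (adjusted p = 0.204). Fth1 was at 393, 386 and 343 FPKM in wild type and 393, 339 and 376 in the knockout, and the ranges covered each other (log2 fold change -0.02 ± 0.11; limma, adjusted p = 0.952). The ratio of Fth1 to Ftl1 was 6.51, 4.15 and 2.29 in wild type and 1.82, 2.11 and 2.13 in the knockout. All knockout ratios were thus below all wild-type ratios, with wild-type replicate 3 close to them. The sum of both chains was 453, 479 and 493 FPKM against 609, 501 and 552. The annotation lists 5 pseudogenes of the ferritin chains, none of which has a row in the expression table, and no source used here says how reads shared with them were counted. Erythroid markers (7 measured) summed to 176, 319 and 148 FPKM in wild type and 137, 297 and 170 in the knockout. Their part in the Ftl1 values was not tested.

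Other genes of the pathway were taken from 8 lists of 124 genes, of which 104 were tested; 4 rose, 4 fell and 96 did not pass, and their median log2 fold change was 0.01. Of all 10501 genes tested by limma, 2.30% rose and 1.34% fell. The authors' deposited table had 14 risen and 10 fallen of the 99 listed genes it tests. Of all 9204 genes it tests, 5.90% were risen and 4.94% fallen. Among the 11 regulators of NRF2 none passed limma in either direction (at an unadjusted p under 0.05, 2 were higher and 1 lower), and the deposited table had 2 risen and 0 fallen (2 higher and 1 lower by its unadjusted p). Nfe2l2 itself was at 23.2, 20.7 and 20.9 FPKM in wild type and 25.5, 30.1 and 33.4 in the knockout. The groups were separate, at 1.37-fold (log2 fold change 0.43 ± 0.12; limma, adjusted p = 0.110; q = 0.0381 in the authors' deposited table). Keap1, the inhibitor, overlapped at 13.5 ± 2.94 and 14.6 ± 0.837 FPKM (limma, adjusted p = 0.723). Bach1, the competing repressor, was at 11.4 ± 0.415 and 9.17 ± 1.26 FPKM with separate groups (log2 fold change -0.29 ± 0.12; limma, adjusted p = 0.245).

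**Figure D4:**
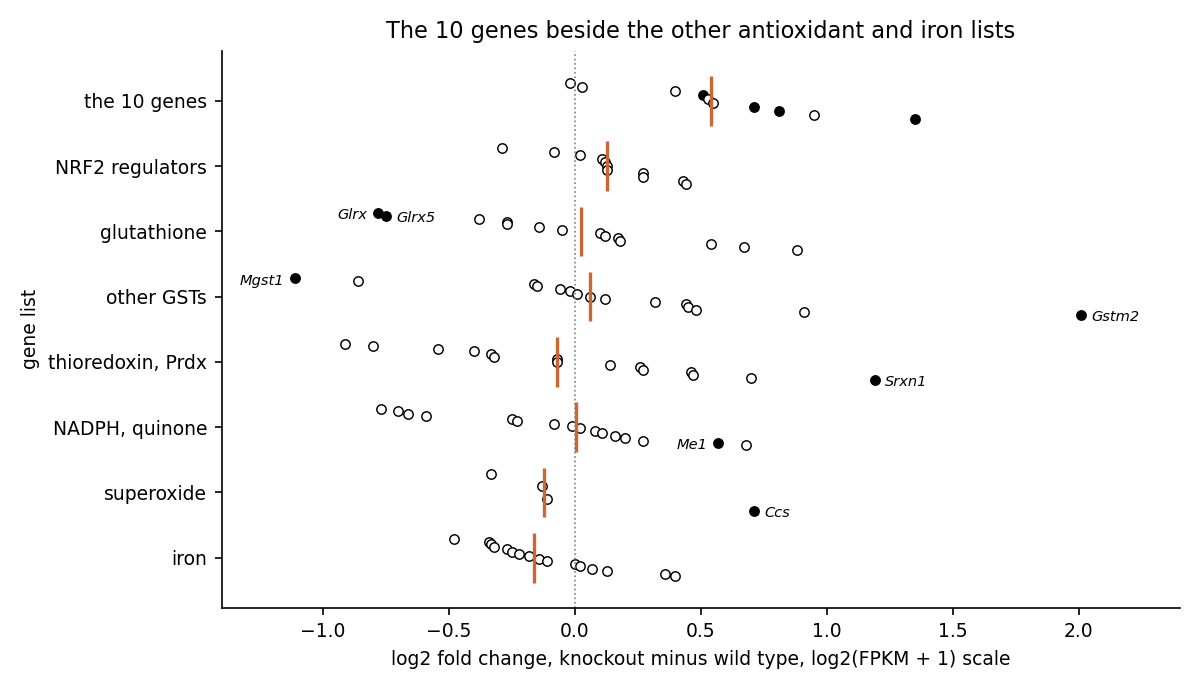
Log2 fold change (log2(FPKM + 1) scale, knockout minus wild type) of each tested gene in the 10-gene set and in 7 of the 8 lists of related genes, with the list median as a line. Filled points passed limma at an adjusted p under 0.05; the median is 0.54 for the 10 genes and between -0.16 and 0.13 for the lists drawn.

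Of the 15 thioredoxin and peroxiredoxin genes tested, Srxn1, sulfiredoxin, which restores over-oxidised peroxiredoxins, rose and 0 fell by limma. At an unadjusted p under 0.05, 4 were higher and 5 lower by limma. The authors' deposited table had 3 risen and 2 fallen. Srxn1 was at 15.7, 18.7 and 14.2 FPKM in wild type and 54.5, 27.6 and 36.6 in the knockout, 2.45-fold higher (log2 fold change 1.19 ± 0.24; limma, adjusted p = 0.0411). Of 16 NADPH and oxidoreductase genes 1 rose, Me1, the malic enzyme that makes NADPH, from 47.9 ± 3.06 to 71.8 ± 4.75 FPKM (log2 fold change 0.57 ± 0.10; limma, adjusted p = 0.0272). None of these 16 fell by limma (2 higher and 3 lower at an unadjusted p under 0.05). The deposited table had 2 risen and 3 fallen. Among 4 superoxide genes Ccs, the copper chaperone of superoxide dismutase 1, rose from 6.45 ± 0.357 to 11.2 ± 1.42 FPKM (limma, adjusted p = 0.0264). It was the only 1 of the 4 with a higher estimate, and their median log2 fold change was -0.12. Sod1 had every knockout library below wild type, at 168 ± 15.4 and 133 ± 4.48 FPKM, without passing (limma, adjusted p = 0.126). The other glutathione transferases went in both directions. Beside Gstm2, Mgst1, a membrane-bound transferase, fell from 54.0, 73.7 and 59.1 FPKM to 30.4, 23.1 and 31.7, 2.20-fold (log2 fold change -1.11 ± 0.16; limma, adjusted p = 0.0192).

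In the glutathione list 2 of 14 fell and 0 rose by limma (3 higher at an unadjusted p under 0.05, and 3 risen in the authors' deposited table). Glrx, cytosolic glutaredoxin, fell from 19.3 ± 0.953 to 10.8 ± 1.44 FPKM (limma, adjusted p = 0.0213). Glrx5, a mitochondrial glutaredoxin of iron-sulfur cluster assembly, fell from 35.0 ± 0.664 to 20.5 ± 2.99 (limma, adjusted p = 0.0221). Slc7a11, the cystine carrier, was under the minimum at 0 to 0.107 FPKM and has no call. None of 16 iron genes passed limma (1 higher and 2 lower at an unadjusted p under 0.05). The deposited table had 0 risen and 1 fallen. Tfrc, the transferrin receptor, was at 93.3 ± 11.8 and 120 ± 15.9 FPKM with separate groups (limma, adjusted p = 0.203), and Slc40a1, the iron exporter ferroportin, overlapped at 17.5 ± 6.14 and 15.6 ± 3.05. The calls of Me1 and Ccs ended without any single library. That of Srxn1 and that of Glrx held only without knockout replicate 2, that of Glrx5 only without knockout replicate 3, and that of Mgst1 without wild-type replicate 1 or 3 or knockout replicate 2.

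The profile of Nqo1 over the 6 libraries was set against all other genes tested, as the root mean square difference of log2(FPKM + 1) centred on each gene's mean. The nearest 5 were Rnf181, Usp46, Pak1, Ctsl and Slc7a5, at differences of 0.120, 0.151, 0.153, 0.155 and 0.159, where the median gene was at 0.713. Slc7a5 was at only 0.289, 0.405 and 0.33 FPKM in wild type and rose 8.64-fold, against 2.64-fold for Nqo1. Its log2 fold change was 1.54 on the log2(FPKM + 1) scale, which understates changes of low genes. Rnf181, a ubiquitin ligase gene, was at 17.8, 16.2 and 16.0 FPKM in wild type and 42.2, 39.7 and 36.3 in the knockout. Its level was close to that of Nqo1, and its closeness in change follows from how it was picked. For Ftl1, examined in the same way after its values were seen, the nearest were Akt1, Agt, Abtb2, Gm5617 and Abi3, at 0.183 to 0.195 against a median of 0.643. Akt1, a protein kinase gene, was at 8.92, 13.3 and 20.9 FPKM in wild type and 23.9, 18.8 and 20.8 in the knockout. Akt1 was picked for its likeness to Ftl1 over these libraries, so the shared spread in wild type follows from that choice. In both genes wild-type replicate 3 was near the knockout level. Gpx4, a glutathione peroxidase of lipids named after its values were seen, showed the same order in wild type at 174, 199 and 308 FPKM. In the knockout it was at 315, 308 and 337 (limma, adjusted p = 0.202, and q = 0.0127 in the authors' deposited table).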

How the data were processed

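The deposited FPKM of 6 quadriceps RNA-seq libraries (3 wild type, 3 HDAC3 knockout) come from the authors' TopHat2 alignments to mm9 and Cuffdiff (submitters' processing notes); no source used here gives versions, annotation or library scaling. Each gene also has a deposited p-value and q-value; q equalled Benjamini-Hochberg over the 9204 genes with p under 1 within 0.000109. Genes with a mean of at least 1 FPKM over the 6 libraries (10501) were tested two-sided with limma 3.58.1 (R 4.3.3) on log2(FPKM + 1) with a mean-variance trend, a scale that understates changes of low genes. Relative depth came from genes under 0.3 FPKM. No intervals for counting error are given, since read numbers are unknown. The HDAC3 peak lists are on mm9, for which no gene positions were at hand, and were not used. Promoters were matched by symbol. Members and lists were chosen with earlier results of these data known. Named were all members, the listed genes called by limma, 7 further genes whatever their result, Hdac3 and the 5 genes most like the member with the largest change. A result among the listed genes is not reported here, and its list is not drawn. Groups came from the labels. Alternatives were the pseudocount, filter, scaling, trend, threshold, a replicate block, the deposited q-values and leaving out each library.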

Additional observations from a re-analysis of the deposited data

How the results depend on the processing

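Counts of risen and fallen genes depended on the setting. Over all genes tested, limma called 242 risen and 141 fallen. Without a filter 152 rose and 95 fell. At an adjusted p under 0.1 there were 478 and 298, and by the authors' deposited q-values 543 and 455. With 1 library left out the counts were 13 to 133 risen and 6 to 75 fallen, lowest without wild-type replicate 2. Of the 10 members 4 rose, and 0 to 4 with 1 library left out. None rose without wild-type replicate 2, and only Nqo1 without knockout replicate 1, 2 or 3. The 4 that rose without wild-type replicate 3 were Nqo1, Cat, Gstm1 and Ftl1 (limma, adjusted p = 0.0499 for Ftl1). Txnrd1 did not pass there (limma, adjusted p = 0.0880). With no filter, with rescaled libraries or without the trend 3 rose, since Txnrd1 no longer passed. Of the other listed genes 4 rose and 4 fell. These became 7 risen and 6 fallen over genes with a deposited p-value under 1, and 12 and 10 at an adjusted p under 0.1. By the deposited q-values there were 14 and 10. With 1 library left out, 1 to 3 rose and 0 to 2 fell. Fewer samples are part of each count with 1 library left out. At an adjusted p under 0.1 only the cutoff of the same fit was looser, so no count could fall. For the others the cause was not tested. With an A required after the core, 1 member in place of 2 held a match, as its construction requires. The direction of Gclm turned by the ratio of the deposited means (log2 -0.00085), and turned for Gclm and Fth1 when some single libraries were left out (-0.12 to 0.24 and -0.08 to 0.04). No other member changed direction in the alternatives run.

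Same-numbered libraries of the groups correlated at 0.0370, 0.0524 and 0.0467 in their deviations from the group means, too little to treat the numbers as pairs, although each library correlated best with its own number. With a replicate block 23 genes rose and 13 fell, 1 member rose (Nqo1), and 1 of the other listed genes rose and 0 fell. The alternatives for HDAC3 peaks near the members were not run, since the peaks are on another build than the gene positions at hand. Knockout replicates 1 and 3 were the shallowest libraries by the estimate of depth, so low genes such as Hmox1 may be measured less precisely in them. The part of depth in the Hmox1 values was not tested.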
